A study of Mus musculus with 11 samples.

Results

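Enzymes that oxidise, hydrolyse or conjugate foreign compounds and retinoids were followed as 5 gene families: cytochromes P450 (Cyp), carboxylesterases (Ces), aldehyde dehydrogenases (Aldh), flavin monooxygenases (Fmo) and cytosolic glutathione transferases (Gst). Symbols were taken by their family stem from the 24421 gene symbols present in both count tables, which gave 169 symbols, and a symbol was kept as a member when its counts summed to at least 10 over the libraries of a table. That left 77 members, 30 of 103 Cyp symbols, 8 of 19 Ces, 19 of 21 Aldh, 4 of 7 Fmo and 16 of 19 Gst. Of the 77, 68 reached the minimum in sorted progenitors and 69 in whole muscle, with 60 in both. The remaining 92 symbols stayed below it, 66 of them with 0 counts in all 11 libraries. Just inside the minimum were Cyp26a1, with 10 counts, and Gsta1, with 11, and just outside it were Gstt4, with 9, and Ces2e, with 8.

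All mice carried a tamoxifen-inducible Cre recombinase driven by Hic1 (Hic1CreERT2) and a tdTomato reporter and received tamoxifen, controls included. WT mice had unmodified Ctnnb1, the gene of beta-catenin, and WT/flox mice (labelled WTlFlox) had 1 allele with loxP sites on both sides of the third exon. Mesenchymal progenitors, also called fibro/adipogenic progenitors, were sorted from resting hindlimb muscle as CD45-, CD31-, Sca1+, tdTomato+ and alpha7- cells, from 3 WT mice (72B8, 74A2 and 73C3) and 3 WT/flox mice (72B7, 74A1 and 74A3). These libraries are labelled day 14 after tamoxifen, except 74A3, labelled day 56. Whole lysate came from the tibialis anterior muscle of 2 WT mice (73A5 and 73A7) and 3 WT/flox mice (71B3, 71B4 and 71B5) at day 56. The age of the mice is not given in the sources used here. Cre acts only where Hic1 has been expressed, so that lysates mix recombined and unrecombined cells. Loss of the third exon removes the phosphorylation sites that target beta-catenin for degradation and leaves a stable protein that activates Wnt target genes.

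Cytochromes P450 insert oxygen into steroids, fatty acids, vitamin D and foreign compounds, and take their electrons from the reductase encoded by Por or, in mitochondria, from ferredoxin (Fdx1) and its reductase (Fdxr). Carboxylesterases cleave ester and amide bonds in drugs and in lipids, and glutathione transferases couple electrophiles to glutathione. Retinoic acid is made from retinaldehyde by the dehydrogenases Aldh1a1, Aldh1a2 and Aldh1a3 and is broken down by the Cyp26 enzymes. In mesenchymal cells, retinoic acid is a differentiation signal that acts through nuclear receptors.

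Total counts per library ran from 13119843 to 16805238 in progenitors and from 16892158 to 19449227 in muscle. Members took 0.297 to 0.363% of the counts in progenitors and 0.157 to 0.171% in muscle. Axin2, a direct Wnt target, rose in the sorted WT/flox cells from 3.47 ± 0.696 to 154 ± 17.2 CPM (counts scaled to 1000000 per library; SD, n = 3 per group), with a log2 fold change of 5.47 (edgeR adjusted p = 4.37e-06). Ctnnb1 itself was at 482 ± 38.3 and 402 ± 23.1 CPM and did not pass (log2 fold change -0.26, adjusted p = 0.673), and a count per gene does not separate the deleted exon. The 8 progenitor markers summed to 26030 to 31870 CPM in WT and 41880 to 45580 CPM in WT/flox sorts. The 8 adipocyte markers summed to 1.657 to 4.17 CPM in WT and 1.365 to 2.715 CPM in WT/flox sorts. Among them, Adipoq, Cidec and Lep were at 0.147 CPM or less in every sort. Plin1 reached 0.734 CPM in WT/flox library 74A1, Plin4 2.78 CPM in WT library 74A2 and Car3 2.35 CPM in WT library 73C3. Lysates were led by fibre markers, which summed to 109900 to 187200 CPM.

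In sorted progenitors, 6 of the 59 members that passed the filter on low counts differed between genotypes at an adjusted p under 0.05, against 3.66% of all 12392 genes tested. Cyp2f2, Ces1f, Ces2g, Ces1d and Aldh1a1 rose in WT/flox cells and Aldh1a2 fell (across all genes, 2.34% rose and 1.32% fell). The 3 tested carboxylesterases all rose, and 2 of the 3 retinaldehyde dehydrogenases moved in opposite directions. The median log2 fold change over the 59 members was -0.03, against 0.00 over all genes, and the median absolute change was 0.38 against 0.16. Members whose libraries did not overlap between genotypes numbered 18, with 9 higher and 9 lower, a share of 30.5% against 16.9% of all genes.

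Only 2 of these calls, Cyp2f2 and Ces1f, held whichever library was left out. The count of called members was 2 without WT library 72B8, 2 without WT library 73C3, 3 without WT/flox library 72B7 and 3 without WT/flox library 74A3, the one at day 56. It was 4 without WT/flox library 74A1 and 8 without WT library 74A2. Over all genes tested, 303, 483, 266, 262, 303 and 437 passed in the same order of omissions, against 454 with every library kept.

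**Figure D1:**
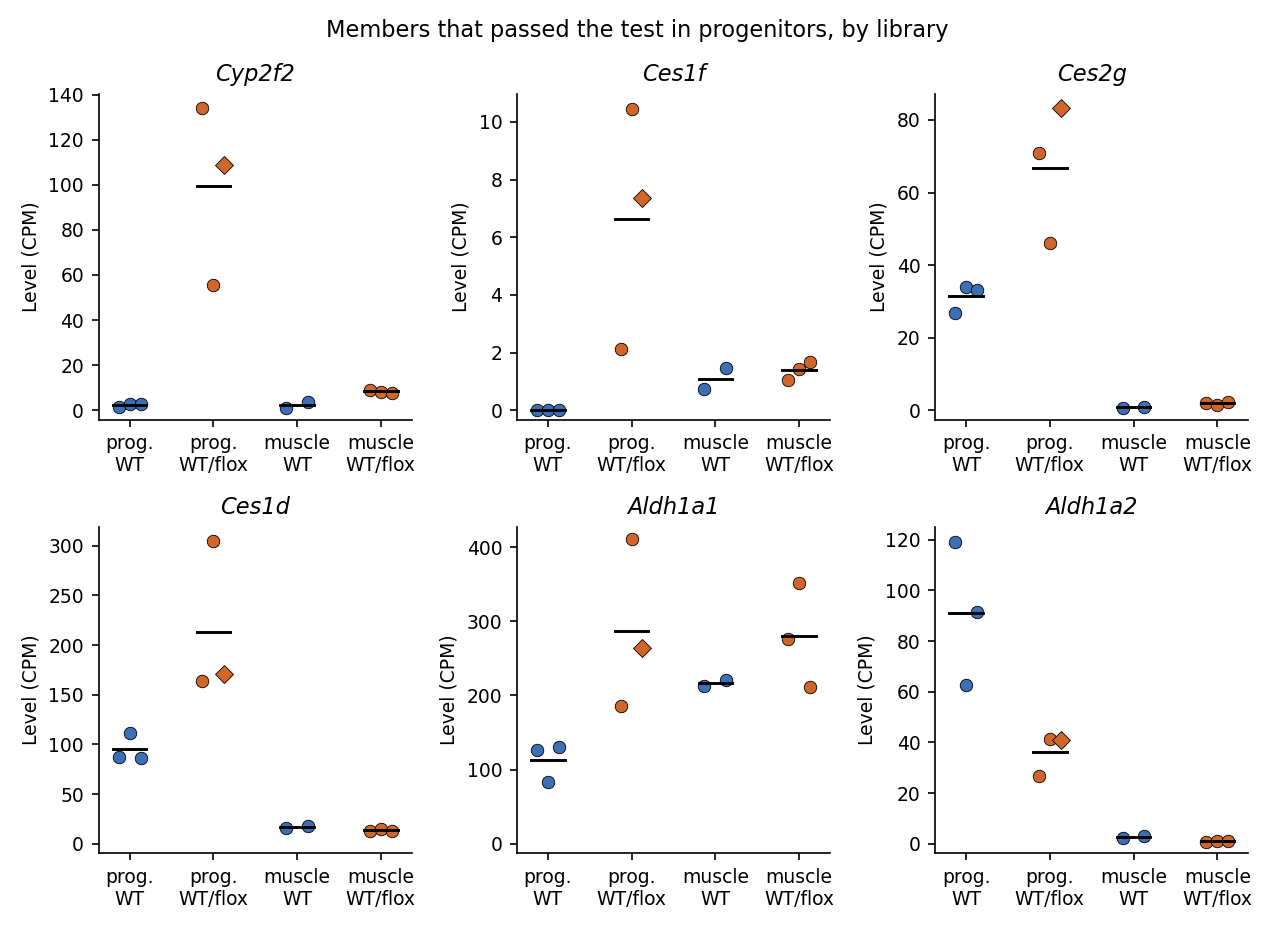
Level (CPM, linear axis) of each member that passed the test in progenitors, with 1 point per library and a bar at the group mean. Blue is WT, orange is WT/flox, and the diamond is the progenitor library labelled day 56. In progenitors no WT point overlaps a WT/flox point, with Aldh1a2 alone lower in WT/flox.

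Upstream sequences from 5 transcription starts of 4 called members are shown because these genes moved together or against each other in 1 cell population. They are 200 bases each, 250 to 51 bases before the start, from RefSeq on GRCm38.p6, 5′ to 3′ on the gene's strand. Overlap with annotated exons was not tested. Capitals mark matches to the motifs searched.
Cyp2f2, chr7:27119705-27119904, plus strand: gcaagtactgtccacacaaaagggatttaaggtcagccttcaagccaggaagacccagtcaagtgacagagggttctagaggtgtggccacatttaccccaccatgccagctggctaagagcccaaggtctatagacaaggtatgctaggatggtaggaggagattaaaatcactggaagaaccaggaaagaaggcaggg
Ces2g, chr8:104961468-104961667, plus strand: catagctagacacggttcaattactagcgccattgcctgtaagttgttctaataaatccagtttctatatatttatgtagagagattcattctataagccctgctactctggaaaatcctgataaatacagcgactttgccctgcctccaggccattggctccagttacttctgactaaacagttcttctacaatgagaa
Aldh1a1, first start, chr19:20492333-20492532, plus strand: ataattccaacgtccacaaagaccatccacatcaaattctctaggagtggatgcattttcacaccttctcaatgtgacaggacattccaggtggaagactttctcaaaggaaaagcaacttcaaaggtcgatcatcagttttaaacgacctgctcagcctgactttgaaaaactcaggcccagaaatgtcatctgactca
Aldh1a1, second start, chr19:20601718-20601917, plus strand: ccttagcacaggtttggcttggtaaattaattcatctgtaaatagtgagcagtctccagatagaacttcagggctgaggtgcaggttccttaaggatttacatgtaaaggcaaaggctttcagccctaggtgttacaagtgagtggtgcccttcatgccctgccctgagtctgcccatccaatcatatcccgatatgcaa
Aldh1a2, chr9:71215539-71215738, plus strand: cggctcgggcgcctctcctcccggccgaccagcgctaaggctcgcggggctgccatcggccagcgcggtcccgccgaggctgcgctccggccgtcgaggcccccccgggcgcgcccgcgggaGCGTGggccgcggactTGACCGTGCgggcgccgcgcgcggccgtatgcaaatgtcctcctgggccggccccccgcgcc
In all, 3 motifs were searched on both strands over windows from 250 bases before to 50 after each start, for 58 members (69 windows) and for all 32851 RefSeq windows. The TCF/LEF motif CTTTGAT was in 1 of 69 member windows, that of Aldh16a1, and in 3.73% of all windows. The antioxidant response element TGACNNNGC was in 8 member windows and 12.4% of all, and the dioxin response element core GCGTG in 20 member windows and 32.4% of all. Of the 5 windows shown, the Aldh1a2 window alone held a match, GCGTG on the plus strand from base -128 and TGACCGTGC on the plus strand from base -112. These do not overlap each other. The Aldh1a2 sequence also had the highest GC content, 81.5%, against 40.0 to 50.0% in the other four. A match is a run of letters and was not tested as a binding site. Ces1d, Ces1f and Aldh1a3 are named only.

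The proportions of the retinaldehyde dehydrogenases to each other changed. Aldh1a1 (ENSMUSG00000053279, GRCm38 chromosome 19, 20492715 to 20643465, plus strand) was at 83.8, 126 and 130 CPM in WT libraries 74A2, 72B8 and 73C3 and at 186, 411 and 263 CPM in WT/flox libraries 74A1, 72B7 and 74A3. Every WT/flox library was above every WT library, and 72B7 was the highest. The log2 fold change was 1.34 (SE 0.29), 2.53-fold, with an adjusted p of 0.0352. That call ended, at adjusted p = 0.0888 without 74A2, 0.103 without 72B8, 0.0758 without 73C3, 0.127 without 72B7 and 0.1 without 74A3, while the log2 fold change stayed at or above 0.98. Among the antisense genes that overlap Aldh1a1 is C730002L08Rik, and strand use in counting is not given in the sources used here, so that reads of such pairs cannot be told apart.

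Aldh1a2 (ENSMUSG00000013584, GRCm38 chromosome 9, 71215789 to 71296243, plus strand), the main retinoic acid synthesising enzyme of the embryo, moved the other way. It was at 62.8, 119 and 91.4 CPM in WT libraries 74A2, 72B8 and 73C3 and at 26.6, 41.2 and 41.1 CPM in WT/flox libraries 74A1, 72B7 and 74A3. The lowest WT value lay above the highest WT/flox value. The log2 fold change was -1.33 (SE 0.26), 2.51-fold lower, with an adjusted p of 0.0200. Leaving out a library ended this call at adjusted p = 0.0652 without 72B8, 0.0557 without 73C3, 0.0723 without 74A1, 0.0803 without 72B7 and 0.0631 without 74A3, with log2 fold changes of -1.54 to -1.09 over all 6 omissions. It overlaps the antisense gene Gm48124.

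Aldh1a3, the third enzyme of this step, was at 48.8, 89.2 and 82.4 CPM in WT and 30.8, 31.2 and 51.6 CPM in WT/flox libraries, in the same library order. The groups overlapped, since 74A3 was above 74A2, and the log2 fold change of -0.96 (SE 0.27) did not pass (adjusted p = 0.108), although it did with DESeq2, with sex as a term, with the replicate numbers of the deposited sample tables as a block and without 74A2 (adjusted p = 0.0294).

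Compared per kilobase of exon, Aldh1a1 held a larger and Aldh1a2 a smaller share of these 3 genes' transcripts in WT/flox cells. Aldh1a1 made up 30.7, 26.3 and 31.1% of their summed CPM per kb in WT libraries 74A2, 72B8 and 73C3, and 67.1, 76.9 and 64.5% in WT/flox libraries 74A1, 72B7 and 74A3. Aldh1a2 made up 50.2, 53.9 and 47.8% in WT and 20.9, 16.8 and 22.0% in WT/flox, and Aldh1a3 19.1 to 21.1% and 6.24 to 13.5%. By this length, the most abundant of the 3 was Aldh1a2 in every WT library and Aldh1a1 in every WT/flox library. With the length of the principal transcript in place of the exon union, Aldh1a1 held 44.2 ± 3.12% in WT and 80.9 ± 4.93% in WT/flox (SD, n = 3 each), again without overlap (40.6 to 46.1% and 77.1 to 86.5%). The order in WT cells turned with that length: Aldh1a1 then led Aldh1a2 in every WT library, at 35.5 against 27.7 CPM per kb in 74A2, 53.6 against 52.6 in 72B8 and 55.1 against 40.4 in 73C3, so that which gene leads in WT cells depends on the length used. The sum of the 3 did not separate the genotypes: it was 55.3, 97.5 and 84.5 CPM per kb in WT and 56.0, 108 and 82.6 CPM per kb in WT/flox libraries by exon union, and 77.5 to 132 and 99.4 to 201 by principal transcript.

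**Figure D2:**
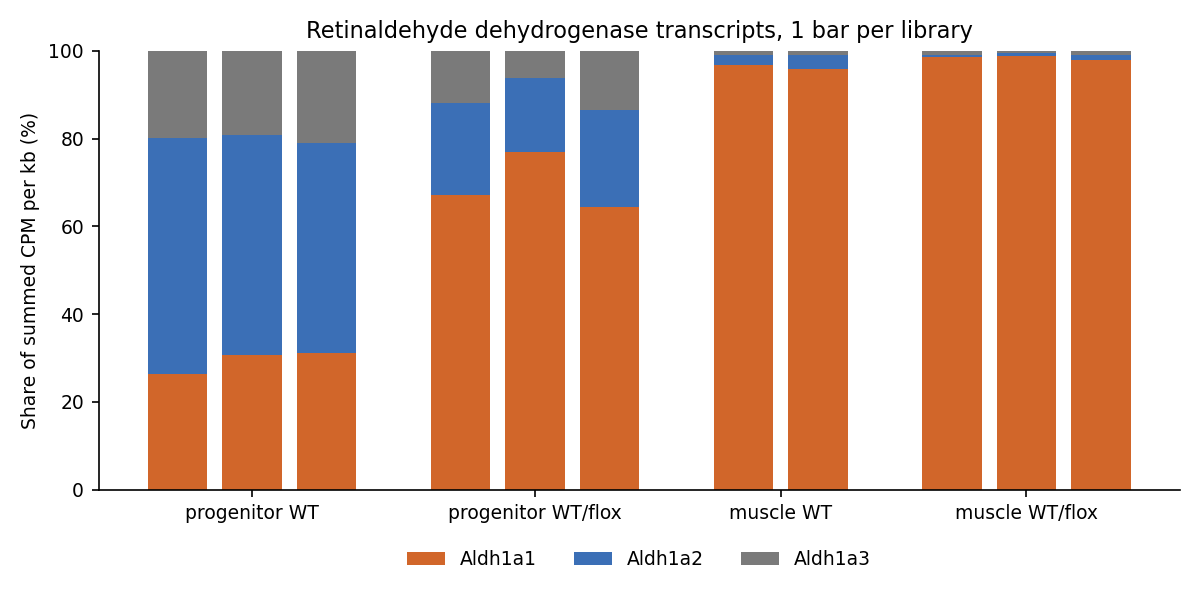
Share (%) of the summed CPM per kb of exon union of Aldh1a1, Aldh1a2 and Aldh1a3 held by each gene, with 1 stacked bar per library in 4 groups. Aldh1a1 (orange) spans 26.3 to 31.1% in WT progenitors, 64.5 to 76.9% in WT/flox progenitors and 95.9 to 98.9% in muscle.

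Retinoic acid breakdown showed no called change. Cyp26b1, the Cyp26 enzyme with the most reads here, was at 36.7, 20.5 and 39.5 CPM in WT and 37.3, 10.7 and 23.4 CPM in WT/flox. The groups overlapped, and the log2 fold change was -0.44 (SE 0.41, adjusted p = 0.871). Cyp1b1, a P450 that also oxidises retinoids and is a textbook target of the aryl hydrocarbon receptor, was at 46.1, 52.0 and 54.1 CPM in WT and 25.5, 34.0 and 54.8 CPM in WT/flox, which did not pass (-0.41 on the log2 scale, SE 0.25, adjusted p = 0.647). Its highest value was in the WT/flox library of day 56. Cyp26a1 was below the minimum in progenitors and Cyp26c1 in both materials.

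Other genes that bind, store or answer to retinoids came from a list of 32, of which 28 were tested. Of these, 4 rose and 1 fell, a share of 17.9% against 3.66% of all genes. The list was chosen with earlier results of these data known, so that this share is not a test of it. Lrat, which esterifies retinol for storage, rose from 1 count summed over WT libraries to 76 summed over WT/flox, at 0.834 to 2.65 CPM in the latter (log2 fold change 5.94, adjusted p = 0.00451). Stra6, the retinol uptake receptor, rose from 0.199 to 1.88 CPM in WT to 8.49 to 13.6 CPM in WT/flox libraries (3.21, adjusted p = 0.00902), a call that ended without 72B7 (0.0587). Tgm2, a transglutaminase induced by retinoic acid, was at 80.2 to 98.1 CPM in WT and 187 to 195 CPM in WT/flox (1.08, adjusted p = 0.00349). Crabp1, a cytosolic retinoic acid binding protein, rose by 2.02 on the log2 scale (adjusted p = 0.0430). Bco1, which cleaves beta-carotene to retinaldehyde, was at 0.728 to 1.66 CPM in WT and 0.220 to 0.227 CPM in WT/flox (-2.50, adjusted p = 0.0339). The calls of Crabp1 and Bco1 ended without any 1 of the 5 libraries other than WT 74A2, at adjusted p-values of 0.0825 to 0.203 and 0.0890 to 0.139, and with limma voom (0.0680 and 0.0664), and that of Crabp1 also with males only (0.121). With DESeq2 the list had 6 higher and 1 lower, Dhrs3 and Rarb being the further 2. Over the list, log2 fold changes had a median of 0.14, against 0.00 over all genes.

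Carboxylesterase transcripts as a family summed to 146, 115 and 120 CPM in WT libraries 74A2, 72B8 and 73C3 and to 239, 362 and 262 CPM in WT/flox libraries 74A1, 72B7 and 74A3. All WT/flox sums were above all WT sums. Most of the sum came from Ces1d (ENSMUSG00000056973, GRCm38 chromosome 8, 93166068 to 93197838, minus strand), an endoplasmic reticulum esterase and triacylglycerol hydrolase. It was at 111, 87.7 and 86.6 CPM in WT and at 164, 304 and 171 CPM in WT/flox libraries, with no overlap. The log2 fold change was 1.16 (SE 0.25), 2.24-fold, with an adjusted p of 0.0343, which rose to 0.137 without 72B8, 0.0940 without 73C3, 0.0699 without 72B7 and 0.0554 without 74A3.

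Ces2g (ENSMUSG00000031877, GRCm38 chromosome 8, 104961718 to 104969537, plus strand), of the second carboxylesterase subfamily, was at 34.1, 26.9 and 33.2 CPM in WT and at 70.8, 46.0 and 83.2 CPM in WT/flox libraries. The groups did not overlap. Its log2 fold change was 1.09 (SE 0.22), 2.12-fold, with an adjusted p of 0.0272. Without 72B8 this was 0.116, without 73C3 0.0510, without 74A1 0.0891 and without 74A3 0.114, and with males only, 2 against 2, it was 0.0677.

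Ces1f (ENSMUSG00000031725, GRCm38 chromosome 8, 93256236 to 93279747, minus strand), a liver esterase in textbook accounts, lies on the chromosome of the other two. No WT library had a count (0 in all), and WT/flox libraries 74A1, 72B7 and 74A3 were at 2.13, 10.5 and 7.35 CPM. Against a floor of 3 counts over the WT group it was at least 100.4-fold higher (adjusted p = 0.00556), and it passed without any 1 library (highest adjusted p 0.0354, without 73C3). Of its 43-base words, 1.33% occur in other genes, as do 2.02% of those of Ces1d and 4.45% of those of Ces2g. These are exact matches only, and whether reads were assigned to a neighbour was not tested. Hepatocyte markers summed to 0 CPM in WT and at most 0.221 CPM in WT/flox sorts. The other 3 carboxylesterases of the progenitor table, Ces1a, Ces2b and Ces2c, were each under 1 CPM and were not tested.

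Among P450 enzymes, 1 of 21 tested passed, a share of 4.76%, near the 3.66% of all 12392 genes. Cyp2f2 (ENSMUSG00000052974, GRCm38 chromosome 7, 27119909 to 27133660, plus strand), known from airway club cells, where it activates naphthalene, was at 2.58, 1.58 and 2.71 CPM in WT libraries 74A2, 72B8 and 73C3 and at 134, 55.6 and 109 CPM in WT/flox libraries 74A1, 72B7 and 74A3. Every WT/flox library was far above every WT library, and 72B7 was the lowest of the WT/flox group. The log2 fold change was 5.42 (SE 0.38), 42.9-fold, with an adjusted p of 8.36e-05, and without any 1 library it stayed at 5.15 to 5.71. Expressed per kb, its mean of 49.1 CPM in WT/flox cells exceeded that of every other P450 there, the next being Cyp27a1 with 27.9, whereas in WT cells it had rank 15 in the family, with 1.13. No 43-base word of Cyp2f2 is shared with another gene, and the airway and other epithelial markers summed to at most 0.220 CPM in any sort. The antisense gene Gm15883 overlaps it.

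The 8 tested fatty acid P450 enzymes and the 6 of sterol, steroid and vitamin D metabolism gave 0 calls with edgeR, with 2 and 0 members at an unadjusted p under 0.05 (12.5% of all genes were under it in progenitors), 1 and 0 with DESeq2 and 0 and 0 with limma voom. Cyp4b1, a fatty acid omega-hydroxylase, was at 6.55, 5.20 and 6.30 CPM in WT and 25.0, 7.37 and 11.8 CPM in WT/flox libraries. The groups were apart, with 74A1 far above the others, and the log2 fold change of 1.29 (SE 0.39) did not pass (adjusted p = 0.139), though it did with DESeq2 (0.0180). The most abundant P450 genes per kb in WT progenitors, Cyp27a1 (sterol 27-hydroxylase, 25.5 CPM per kb), Cyp20a1 (25.2) and Cyp2d22 (24.3), overlapped between genotypes.

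Among genes that supply these enzymes with electrons, Por passed. It was at 141, 96.3 and 131 CPM in WT and 294, 220 and 211 CPM in WT/flox. It rose by 0.97 on the log2 scale (SE 0.21, adjusted p = 0.0309), a call that ended without 72B8, 74A1, 72B7 or 74A3 (0.0669 to 0.136) and with males only (0.105). Cyb5a, Cyb5r3, Fdx1 and Fdxr did not pass, with log2 fold changes of -0.05, -0.10, -0.17 and -0.24. Of 58 other conjugating, transporting or electron-supplying genes listed, 41 were tested, and 2 rose and 1 fell. That was 7.32% of those tested, against 3.66% of all genes. The second to rise was Aox3, an aldehyde oxidase, from 9.33 to 11.1 CPM in WT to 39.8 to 50.2 CPM in WT/flox (2.08, adjusted p = 0.000121). Sult5a1, a sulfotransferase, fell from 35.7 to 49.8 CPM to 13.7 to 25.6 CPM (-1.16, adjusted p = 0.0283), and this call ended without 74A2, 72B8, 74A1 or 74A3 (0.0630 to 0.112) and with males only (0.132). Of 26 genes of the oxidant and aryl hydrocarbon responses, 25 were tested. Ahr, the receptor, and Ahrr, its repressor, were the 2 that passed, both higher, 8% of those tested against 3.66% of all genes. Ahr was at 1.26 to 3.92 CPM in WT and 14.7 to 20.6 CPM in WT/flox (2.96, adjusted p = 0.00149), and Ahrr rose from 8 counts summed over WT libraries to 84 summed over WT/flox (3.49, adjusted p = 0.00819). With DESeq2, Gpx3, a secreted glutathione peroxidase, also passed, lower in WT/flox cells (592 ± 157 CPM) than in WT cells (1582 ± 752 CPM; SD, n = 3 per group; edgeR log2 fold change -1.42, adjusted p = 0.0506), and the conjugation list had 3 higher and 2 lower. The medians of the conjugation and oxidant lists were 0.08 and -0.04. Both lists were also chosen with earlier results of these data known, so that their shares are not a test of them.

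Glutathione transferases gave 0 calls among 14 tested with edgeR, with 3 at an unadjusted p under 0.05 against 12.5% of all genes, 2 with DESeq2 (Gstt1 and Gstt3, both lower) and 0 with limma voom. Gstm1, the most abundant member of the whole set per kb in WT cells, was at 470, 493 and 633 CPM in WT and 354, 457 and 386 CPM in WT/flox libraries, and Gstt1 at 137, 118 and 128 CPM in WT and 80.7, 102 and 73.8 CPM in WT/flox. Both had every WT/flox library below every WT library without passing (adjusted p = 0.437 and 0.120). Gstm2, the third most abundant of the family, overlapped between genotypes. Sequence sharing limits part of this family: 21.9% of the 43-base words of Gstm1, 35.3% of those of Gstp1 and 56.1% of those of Gstp2 occur in other genes, so that their values are uncertain.

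Aldehyde dehydrogenases outside the retinoid step were 8 tested enzymes of amino acid and folate metabolism and 7 others. Both groups gave 0 calls with edgeR and limma voom, and 1 and 0 with DESeq2 (Aldh1l2, higher). With edgeR, 2 and 1 were at an unadjusted p under 0.05, against 12.5% of all genes. Aldh2, which clears acetaldehyde and lipid aldehydes in mitochondria, was the most abundant of the family per kb in both materials, at 616, 629 and 690 CPM in WT and 652, 850 and 568 CPM in WT/flox progenitors, with overlap. Aldh1a7, a close relative of Aldh1a1 that shares 9.24% of its 43-base words with other genes, was at 0.596, 0.452 and 1.35 CPM in WT and 1.47, 1.77 and 2.12 CPM in WT/flox, apart but not passing (log2 fold change 1.12, SE 0.47, adjusted p = 0.343). Aldh1l1, a folate enzyme, separated the libraries by sex. It was at 27.3 and 43.4 CPM in the 2 libraries of females, 74A2 and 74A1, and at 2.88 to 10.4 CPM in the 4 of males, a pattern picked out after the values were seen and not tested. Flavin monooxygenases, Fmo1, Fmo2 and Fmo5, had 0 calls among 3 tested with edgeR, DESeq2 and limma voom. With edgeR, 2 were at an unadjusted p under 0.05, against 12.5% of all genes. Fmo5 was at 30.8 to 36.5 CPM in WT and 21.8 to 28.9 CPM in WT/flox, apart, and the other two overlapped.

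**Figure D3:**
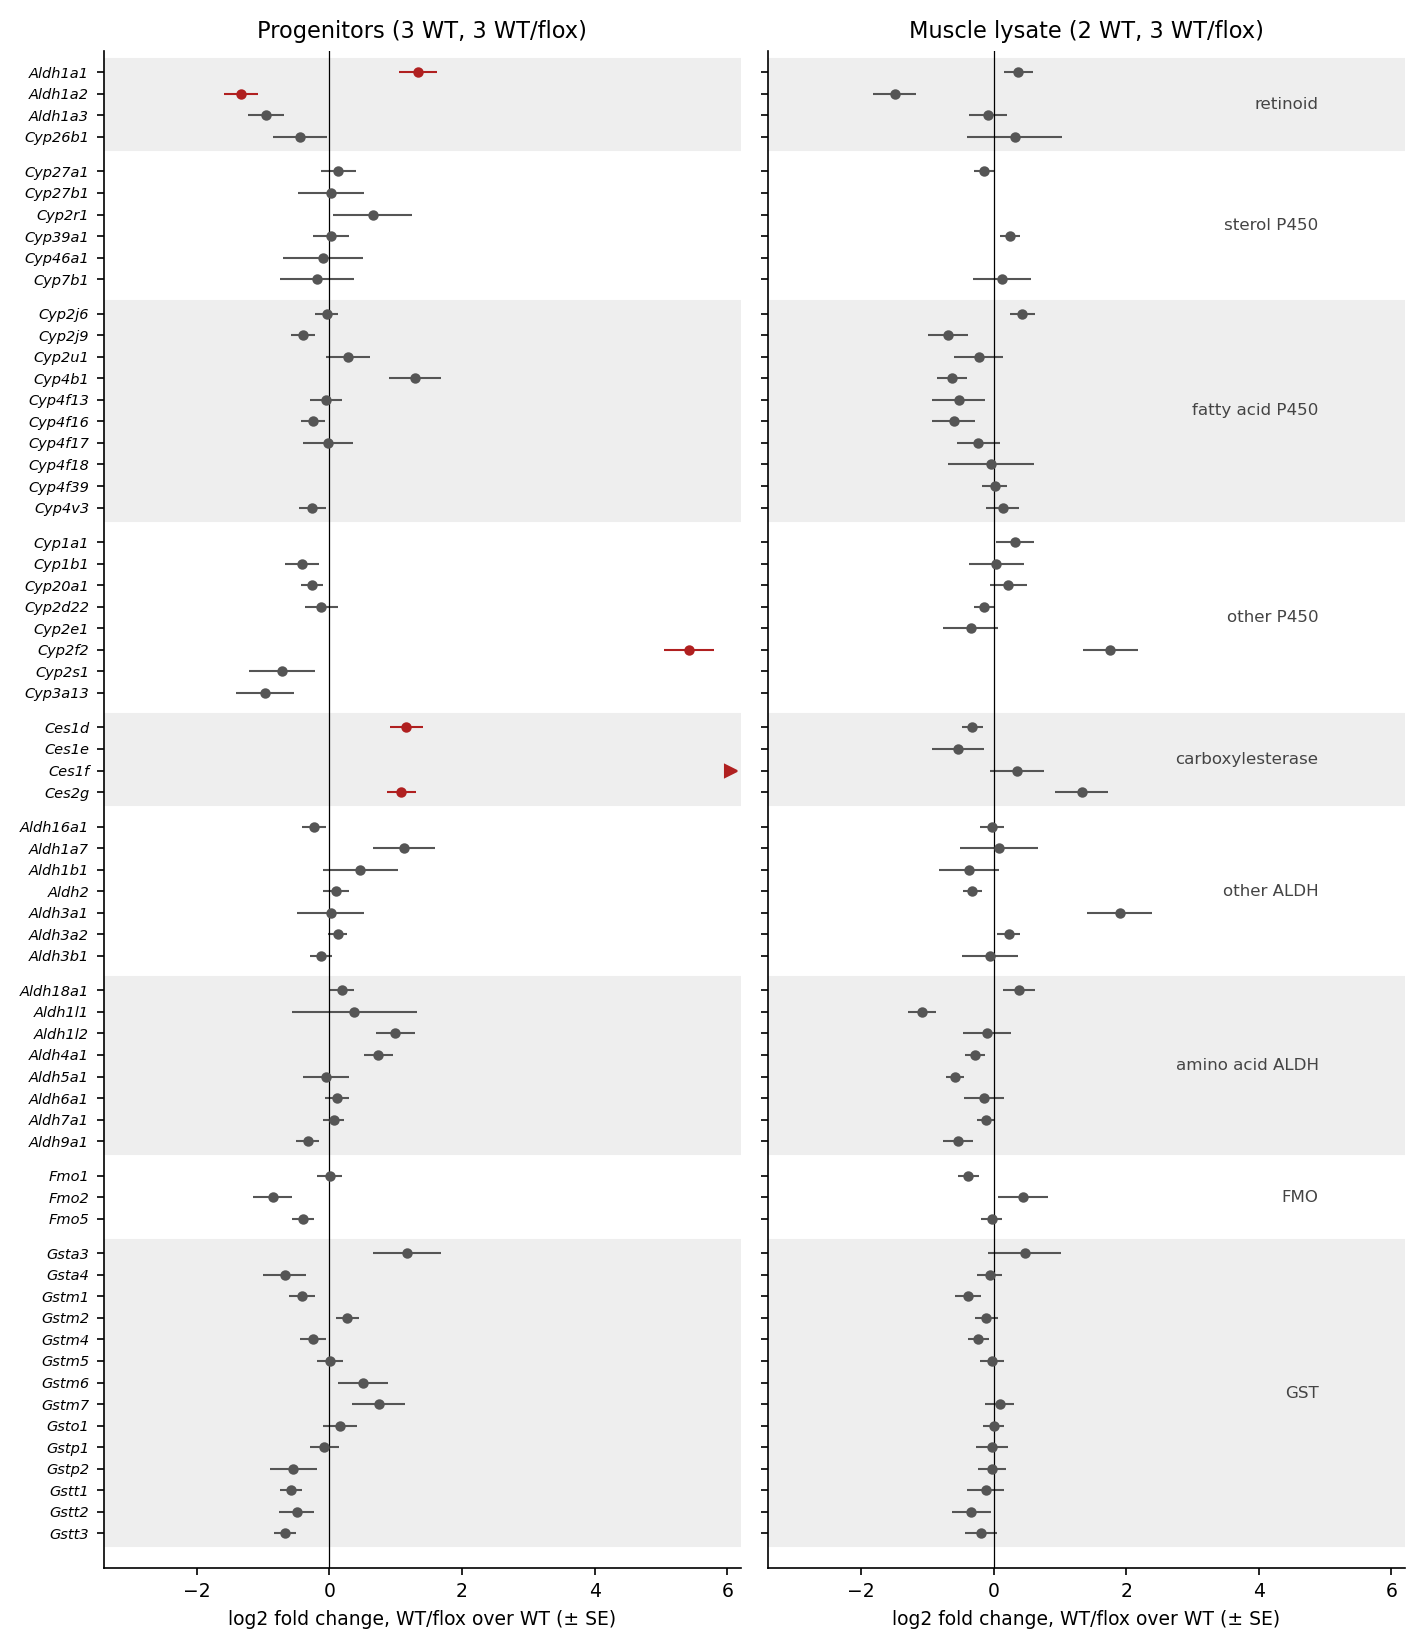
Log2 fold change of WT/flox over WT with its SE for each tested member, grouped by role, in progenitors (left) and muscle (right). Red marks members that passed the test, and the arrow marks Ces1f, which had 0 counts in WT and has no finite fold. Members without a point were not tested in that material. The 6 red symbols are all in progenitors.

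Marker levels in the same sorts bear on these comparisons. The sum of the progenitor markers was higher in every WT/flox sort, as given above, but its members differed. Col1a1 was at 6855 to 8054 CPM in WT and 15380 to 18540 CPM in WT/flox, the 1 marker of the 8 that passed with edgeR, DESeq2 and limma voom. Pdgfra was at 1553 to 1836 CPM in WT and 1098 to 1335 CPM in WT/flox, and Hic1, whose promoter drives Cre, at 87.4 to 109 CPM and 76.3 to 99.4 CPM (log2 fold change -0.26, adjusted p = 0.711). Tendon markers summed to 172 to 454 CPM in WT and 76.0 to 156 CPM in WT/flox. Most of that sum was Fmod, at 151 to 384.5 CPM in WT and 53.5 to 115 CPM in WT/flox. Mkx went the other way, at 1.72 to 2.24 CPM in WT and 4.04 to 5.31 CPM in WT/flox, while Tnmd, Scx and Kera overlapped. Fibre markers summed to 18.4 to 126 CPM in WT and 19.4 to 25.0 CPM in WT/flox. The part of these markers in the differences of members was not tested. In sorted cells as in muscle, fewer cells of a type and less RNA per cell cannot be told apart.

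In whole muscle, 0 of 58 tested members passed with edgeR, against 0.727% of 12654 genes (0.514% higher and 0.213% lower). An unadjusted p under 0.05 was found for 9 members, against 9.69% of all genes, 2 passed with DESeq2 and 0 with limma voom. Libraries did not overlap between genotypes for 17 members, 5 higher and 12 lower, a share of 29.3% against 25.3% of all genes. The median log2 fold change of members was -0.07, against 0.00 over all genes. That share was near the background, and the members described next are those at least 2-fold different with libraries apart.

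Cyp2f2 was at 1.14 and 3.78 CPM in WT muscles 73A5 and 73A7 and at 9.01, 8.06 and 7.80 CPM in WT/flox muscles 71B3, 71B4 and 71B5. The log2 fold change of 1.76 (SE 0.41) did not pass (adjusted p = 0.142). It did with DESeq2 (0.00267) and with the replicate block (0.000272), and its size was 1.13 to 2.86 over the 5 omissions of 1 library. Ces2g was at 0.539 and 0.961 CPM in WT and 2.11, 1.33 and 2.2 CPM in WT/flox muscles (1.33, SE 0.40, adjusted p = 0.281). Aldh3a1, a dehydrogenase of lipid aldehydes, was at 0.239 and 0.449 CPM in WT and 1.63, 0.854 and 1.39 CPM in WT/flox muscles (1.90, SE 0.49, adjusted p = 0.199). These 3 were higher in WT/flox muscles. The sum of the 8 progenitor markers was also higher there, at 552 and 868 CPM in WT and 1019 to 1204 CPM in WT/flox muscles. All 8 had positive log2 fold changes, but libraries were apart for only 3 of them. Most of the sum was Dcn (260 and 370 against 519.6 to 597.3 CPM) and Col1a1 (136 and 260 against 279.5 to 352.5 CPM), while Ly6a and Lum overlapped. Endothelial markers summed lower, at 376 and 377 against 283 to 298 CPM. The part of these shifts in the members' values was not tested.

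In muscle, 2 members were lower by at least 2-fold with libraries apart. Aldh1a2 was at 2.27 and 3.20 CPM in WT and 0.685, 1.12 and 1.10 CPM in WT/flox muscles (log2 fold change -1.49, SE 0.33, adjusted p = 0.124), the direction it had in progenitors. Aldh1l1 was at 6.76 and 9.03 CPM in WT and 3.74, 4.11 and 3.35 CPM in WT/flox muscles (-1.08, SE 0.21, adjusted p = 0.0881), and passed with DESeq2 (0.0195). Over the 5 omissions of 1 library, log2 fold changes were -1.715 to -1.225 for Aldh1a2 and -1.275 to -0.86 for Aldh1l1. Leaving out 73A5 or 73A7 leaves 1 WT muscle and no spread between WT mice, so that calls of those fits are not given. Cyp26b1 differed widely between those 2 muscles, at 0.658 CPM in 73A5 and 7.69 CPM in 73A7, with the WT/flox muscles at 4.53 to 5.98 CPM between them.

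Aldh1a1 overlapped between genotypes in muscle, at 212 and 220 CPM in WT and 276, 352 and 211 CPM in WT/flox (log2 fold change 0.37, SE 0.22, adjusted p = 0.667), as did Aldh1a3 (1.86 and 2.18 against 1.49 to 2.27 CPM) and Cyp1b1 (0.778 and 1.09 against 0.640 to 1.32 CPM). Ces1d was at 15.6 and 17.5 CPM in WT and 12.5, 14.8 and 12.5 CPM in WT/flox muscles, and Ces1f at 0.718 and 1.47 against 1.05 to 1.67 CPM. Neither passed (adjusted p = 0.575 and 0.872). Of the retinoid, oxidant and conjugation lists, 25, 24 and 41 genes were tested in muscle with 0 calls each by edgeR, 10, 2 and 5 at an unadjusted p under 0.05 (against 9.69% of all genes), 1, 1 and 0 with DESeq2 (Adh7 and Gpx3, both higher) and 0 with limma voom.

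The genotype difference in progenitors was set against that in muscle in a joint model of all 11 libraries. The interaction passed for 2 of 66 members, Cyp2f2 and Ces1f, against 0.769% of 13781 genes. For Cyp2f2 the log2 fold change in progenitors exceeded that in muscle by 3.60 (SE 0.59, adjusted p = 0.0102). For Ces1f it passed at adjusted p = 0.0102, with 0 counts in WT progenitors and 35 in WT muscle. Ces1d, with a difference of 1.43 (SE 0.33), did not pass (0.0746), nor did Cyp4b1 with 1.86 (SE 0.52, 0.167), although both did with DESeq2. For Aldh1a2 the difference was 0.11 (SE 0.42, adjusted p = 1). RNA kit changed with material, every muscle and 1 of 6 progenitor libraries (74A3) were of day 56, and every muscle and 4 of 6 progenitor libraries were from males. The parts of material and kit cannot be told apart, and those of day and sex were not tested here. Of 53 members tested in both materials, 32 had the same sign, 60.4% against 53.7% of all genes, and among the 6 called in progenitors the exception was Ces1d.

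Levels in WT progenitors and WT muscle differed for most members, as they did for most genes. Between WT progenitors and WT muscle, 30 of 66 members were at least 2-fold higher in progenitors and 16 in muscle, against 31.3% and 29.7% of all 13781 genes. By family the split was 15 and 5 of 25 for Cyp, 2 and 2 of 5 for Ces, 7 and 4 of 18 for Aldh, 1 and 0 of 3 for Fmo and 5 and 5 of 15 for Gst. Levels in this comparison were scaled over all 11 libraries. All WT progenitor libraries were of day 14 and all WT muscles of day 56, so that material, day and RNA kit cannot be told apart here.

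Higher in progenitors were Aldh1a2 (22.4-fold, 76.7 against 3.42 CPM), Aldh1a3 (24.6-fold, 62.0 against 2.52), Cyp26b1 (5.31-fold), Cyp1b1 (36.6-fold, 42.8 against 1.16), Ces2g (28.3-fold) and Ces1d (3.87-fold). Aldh1a1 ran against its relatives, 2.82-fold higher in muscle (270 against 95.8 CPM, adjusted p = 0.00055). The ratio of Aldh1a1 to Aldh1a2 counts within a library was 1.06 to 1.42 in WT progenitors, 6.40 to 9.97 in WT/flox progenitors, 68.7 and 93.3 in WT muscles and 191 to 403 in WT/flox muscles. This ratio takes no account of transcript length, so that it does not rank the genes within a library.

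Higher in muscle was, above all, Cyp4f39, a fatty acid P450, with 1 count in WT progenitors and 1322 in WT muscle, a depth-scaled ratio of 2750 (95% counting interval 492 to 109000). It overlapped between muscle genotypes, at 40.1 and 41.8 against 34.6 to 51.4 CPM. Cyp2e1, the ethanol-oxidising P450, was 42.6-fold higher in muscle and at 7.84 and 25.7 CPM in the WT muscles, 73A5 and 73A7. Of the 8 adipocyte markers, 6 were also higher in 73A7, among them Adipoq (3.77 and 14.1 CPM), Cidec (3.41 and 13.7) and Lep (1.38 and 5.19), while Plin4 and Car3 were lower. The markers' sum, 1699 and 1063 CPM, was mostly Car3 (1442 and 744), which muscle fibres also express. The part of adipocyte content in Cyp2e1 was not tested. The enzymes of amino acid breakdown Aldh4a1 (proline) and Aldh6a1 (valine) were 13.9-fold and 4.30-fold higher, and Gsto1 and Gstm5 6.66-fold and 4.29-fold. Aldh4a1 shares 30.4% of its 43-base words with Gm21969. Ces1f, with no count in WT progenitors, was at least 24.2-fold higher in WT muscle, and Ces1e had 1 count against 24, a ratio of 49.9 (8.13 to 2050). Intervals and floors cover counting error only.

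**Figure D4:**
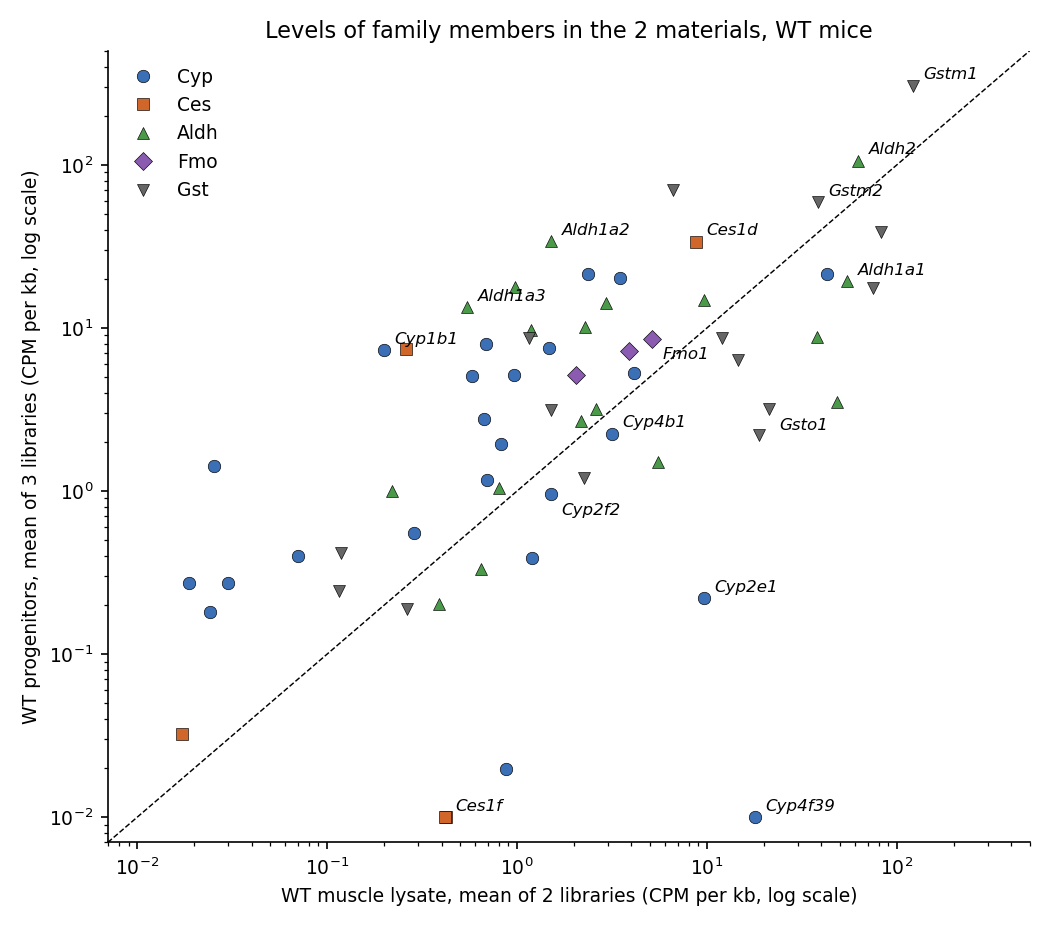
Mean level of each member in WT progenitors (3 libraries) against WT muscle (2 libraries), in CPM per kb of exon on 2 log axes, with shape and colour by family and the dashed line at equal levels. Shown are 65 members with a known length, and the 3 below 0.01 in progenitors are drawn at 0.01. Aldh1a2 and Aldh1a3 lie above the line and Aldh1a1 below it, and Cyp4f39 is at the lower right.

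The most abundant members per kb in WT muscle were Gstm1 (96.8 CPM per kb), Gstp1 (65.8) and Gstm5 (60.2), then Aldh2 (50.1), Aldh1a1 (43.8), Aldh4a1 (38.9) and Cyp27a1 (34.4). In WT progenitors Gstm1 (361) and Aldh2 (126) led, followed by Gstt1 (83.7) and Gstm2 (69.6). Fmo1 led its family in both, with 10.1 and 4.11 CPM per kb. Too low to test in either material, and named only, were 13 members: Aldh3b2, Ces1a, Ces2b, Ces2c, Ces5a, Cyp11a1, Cyp21a1, Cyp26a1, Cyp2c44, Cyp2j5, Fmo4, Gsta1 and Gsto2.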

How the data were processed

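Messenger RNA was sequenced in 11 libraries from 11 mice, read as paired ends of 43 bases from a stranded mRNA kit, per the labels' protocols. The deposited values are whole-number counts per gene symbol made by the authors, in 1 table per material. Tools named, per the submitters' processing notes, were STAR, Bowtie and bcl2fastq 2.20, with build mm10. The counting program is not given in the sources used here, nor is its use of strand. Sample tables deposited with the counts also call the lysates FAPs. The labels were followed. The depth of each library was its total count.

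Counts were tested per material with edgeR 4.0.16 in R 4.3.3 (filterByExpr, TMM scaling, robust quasi-likelihood F test, two-sided, Benjamini-Hochberg over all genes tested, threshold 0.05). Levels are CPM scaled by TMM, and groups are given as mean ± SD. The SE is the one implied by the F statistic. A joint fit of all libraries, material by genotype, gave the interaction and the contrast of WT materials, the latter called at 2-fold or more. Genes were compared with each other per kb of GENCODE M21 exon union. Exceptions were the comparison of Aldh1a1, Aldh1a2 and Aldh1a3 by principal transcript length, the ratio of Aldh1a1 to Aldh1a2 counts and parts of summed CPM. Of the 169 family symbols 167 matched a gene name. Alternatives were DESeq2 1.42.0, limma 3.58.1 voom, RLE scaling, no filter, a sex term, males only and leaving out each library. In simulated counts for the 12392 genes of the progenitor test, 55.1% of 2-fold and 96.0% of 4-fold changes were recovered, with 13 false calls among the unchanged genes; for the 12654 genes of the muscle test these were 69.0%, 98.0% and 14. P-values measure the spread between mice. Within each group, every pair of libraries differed beyond sampling noise (chi-square of 7.75 to 67.2 per degree of freedom).

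Members, gene lists, tests and alternatives were chosen with earlier results of these data known. Named are members called in either material or in the interaction, the 3 highest of each family per kb, those 2-fold different with libraries apart, the retinoid enzymes and those untested in both; of other genes, Ctnnb1, Axin2 and called genes of 3 lists. Between libraries of the same replicate number in the deposited sample tables, correlations of deviations from the group mean ran from -0.559 to 0.281. Such deviations are tied to each other in groups of 2 or 3, so that these values cannot decide whether libraries are paired. The main tests were unpaired.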

Additional observations from a re-analysis of the deposited data

Results flagged for a closer look

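For Cyp2f2 the log2 fold change of WT/flox over WT in progenitors exceeded that in muscle by 3.60 (SE 0.59), and the interaction in the joint edgeR fit passed with an adjusted p of 0.0102. It was higher in every WT/flox library of both materials than in any WT library of the same material. For Ces1f the fitted difference was 9.08 (adjusted p = 0.0102). That size depends on the prior count, because WT progenitors had 0 counts, and only its direction and test are meaningful. In muscle Ces1f overlapped between genotypes. Both calls held without the WT/flox progenitor library of day 56 (adjusted p = 0.0290 for Cyp2f2 and 0.0246 for Ces1f) and with RLE scaling and DESeq2. Without library 74A3 every progenitor library was of day 14 and every muscle of day 56, so that this omission cannot tell day and material apart. Material and RNA kit cannot be told apart in this comparison, and sex, male in all muscles and in 4 of 6 progenitor libraries, was not tested. Groups of 2 or 3 libraries were too small to look for single libraries far from the rest.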

How the results depend on the processing

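The 6 calls in progenitors were all kept with RLE scaling, no filter, DESeq2, limma voom and a sex term, and 5 with males only. Called members numbered 11 with DESeq2, where 744 of 16709 genes passed. When 1 library was left out they numbered 2 to 8, with 262 to 483 genes passing. In muscle the count rose from 0 to 2 with DESeq2 and was 0 to 3 when 1 library was left out. The interaction calls numbered 4 with DESeq2. With a replicate block from the deposited sample tables, chosen after seeing the data, 8 members passed in progenitors and 1, Cyp2f2, in muscle. Over all genes, 491 and 178 passed with that block. Groups share no replicate number in the labels. The count of members at least 2-fold different between WT materials went from 46 to 45 with RLE scaling.

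Among members named with a fold change, called directions in progenitors held under every alternative. Uncalled values that changed sign in progenitors were Aldh1l1, -0.14 with limma voom, -0.31 with males only, -0.056 with the block and -1.13 (without 74A1) to 1.20 when 1 library was left out, and Aldh3a1, -0.26 with males only and -0.40 (without 74A2) to 0.60 when 1 library was left out. In muscle they were Cyp1b1, -0.008 with limma voom and -0.27 with the block, and, over the omissions of 1 library, Cyp1b1 (-0.26 to 0.29), Ces1f (-0.079 to 0.95), Aldh1a7 (-0.66 to 1.64), Cyp26b1 (-0.57 to 2.96) and Aldh1a3 (-0.22 to 0.075). The cause was not tested. Leaving out a library also leaves fewer samples, and with 1 WT muscle left that muscle is assumed to vary like the others. The Aldh1a1 share rose to 44.2% in WT and 80.9% in WT/flox progenitors with principal transcript lengths.

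Depth limits the low members: 9 of 68 in progenitors and 11 of 69 in muscle could not be tested, and at this number of libraries many 2-fold changes are missed.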
